A study of Mus musculus with 6 samples.

Results

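The 10 genes described here are the TGF-beta ligands, receptors and SMADs Tgfb1, Tgfb2, Tgfb3, Inhba, Tgfbr1, Tgfbr2, Tgfbr3, Smad2, Smad3 and Smad7. They were chosen by name from the 45706 genes of the count table, and all 10 had enough counts to be tested. RNA had been sequenced from 3T3-L1 cells, mouse fibroblasts that can be turned into adipocytes in culture, on day 7 of differentiation. The 3 scrambled control samples carried an shRNA with no intended target, and the 3 RBMS1 knockdown samples carried an shRNA against Rbms1, which encodes an RNA-binding protein. Both groups had been transduced with lentivirus, selected with puromycin and differentiated with IBMX, insulin, dexamethasone and rosiglitazone. The glucocorticoid dexamethasone and the PPARG agonist rosiglitazone were thus common to all 6 samples. The cells of a group were a stably transduced line with the shRNA present throughout differentiation, and whether a line was a single clone is not given in the sources used here. The comparison asks how the messages of this pathway differ when Rbms1 is reduced in adipocytes.

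TGF-beta ligands are secreted as latent complexes and, once activated, bind the type II receptor TGFBR2, which recruits and phosphorylates the type I receptor TGFBR1. TGFBR3, or betaglycan, is a co-receptor that presents ligand, TGF-beta 2 above all. The activated type I receptor phosphorylates SMAD2 and SMAD3, which enter the nucleus with SMAD4, and SMAD7 is an inhibitor induced by the pathway that acts back on the receptor. Inhba encodes the subunit of activin A, which signals through activin receptors to the same SMAD2 and SMAD3. In preadipocytes TGF-beta is known as an inhibitor of adipogenesis and an inducer of extracellular matrix genes.

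Total counts ranged from 3142695 to 11073098 per sample, and the shallowest sample, scrambled control replicate 2, had 43.0% of its counts in genes derived from ribosomal RNA against 8.12% to 17.8% in the others. Values are given as CPM, counts scaled to a common library size after correction of each library by its TMM factor, which balances the composition of the libraries. A count of 3, the limit that a count of 0 allows, equalled 0.220 to 1.49 CPM, which allows for counting error but for no other error. Rbms1 was at 113, 102 and 99.6 CPM in the controls and 49.2, 61.4 and 84.0 CPM in the knockdown samples. It was lower in every knockdown sample, but its log2 fold change of -0.69 (standard error 0.20) had an adjusted p of 0.185 (edgeR, quasi-likelihood test, Benjamini-Hochberg over all genes tested), short of the threshold of 0.1 used throughout. It passed without knockdown replicate 3 (-0.92, adjusted p = 0.0708). With library sizes alone, a scaling that raised the median of all genes by 0.37, it was -0.31. At the protein level the paper reports the knockdown by immunoblot. Of 16 adipocyte markers all were detected well enough to be tested, and their summed level was 29936 to 32891 CPM in the controls and 15597 to 27897 CPM in the knockdown samples. Of 15 preadipocyte and fibroblast markers 12 were tested, with sums of 2051 to 2362 CPM and 992 to 2402 CPM. The 7 leukocyte and endothelial markers summed to 0.860 to 2.08 CPM in the controls and 0.881 to 1.44 CPM in the knockdown samples, with Ptprc and Adgre1 at 0 counts in all samples. RBMS1 knockdown replicate 1 stood apart from the other knockdown samples, with the lowest fibroblast marker sum (992 CPM) and the highest adipocyte marker sum of its group (27897 CPM). The part of these marker levels in the results below was not tested. In bulk RNA, fewer cells of a type and less RNA per cell cannot be told apart.

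None of the 10 members passed the adjusted p threshold of 0.1 in edgeR's quasi-likelihood test. Over all 11440 genes tested, 140 genes (1.22%) did, a count that was 12 without control replicate 2 and 696 (5.94% of the genes then tested) without knockdown replicate 1. DESeq2 called 1 member, Tgfb1, where it called 431 of 13374 genes (3.22%). At an unadjusted p under 0.05, 1 member, again Tgfb1, passed, beside 12.4% of all tested genes. Tgfb1 was the member with every knockdown sample above every control sample, a pattern of 8.96% of all tested genes, and Tgfb2 was the member with every knockdown sample below every control sample, a pattern of 9.55%. Among 10 members, 1 in each direction is near these shares. The log2 fold changes of 7 members were above 0 and of 3 below 0, with a median of 0.058 beside 0.0044 for all tested genes. The values of each gene follow by its role.

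**Figure D1:**
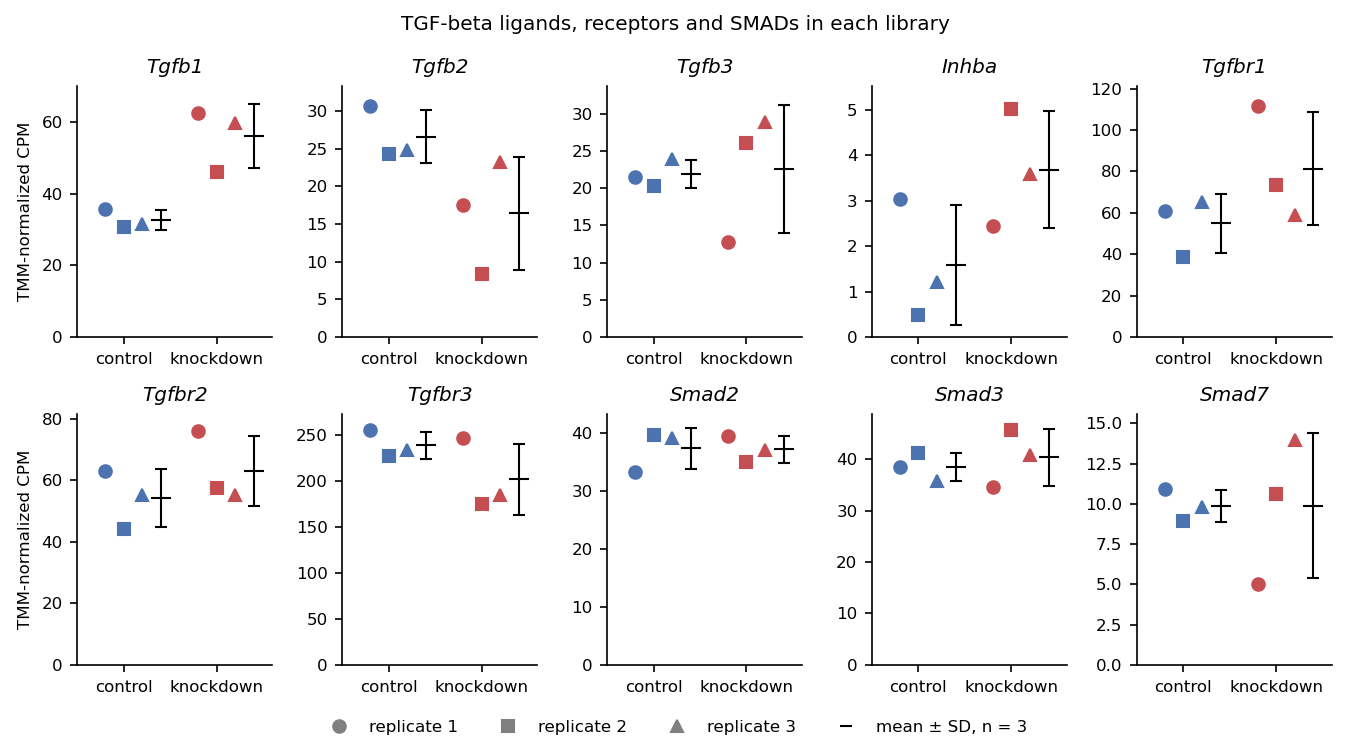
Each panel plots the TMM-normalized CPM (vertical axis, from 0) of 1 member in the 3 scrambled control and the 3 RBMS1 knockdown samples, with the replicate number as the symbol and the mean ± SD (n = 3) in black. The knockdown samples lie above the controls for Tgfb1 (46.1 to 62.5 against 30.8 to 35.7 CPM) and below them for Tgfb2 (8.42 to 23.3 against 24.3 to 30.6 CPM), while the groups overlap in the other panels.

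Among the ligands, Tgfb1 and Tgfb2 lay in opposite directions, and neither was called by edgeR. Tgfb1 (ENSMUSG00000002603, GRCm38 chromosome 7, 25687002 to 25705077, plus strand), which encodes the TGF-beta isoform most cells make, had 223, 62 and 183 counts in the controls and 435, 394 and 815 in the knockdown samples. After scaling these were 35.7, 30.8 and 31.5 CPM against 62.5, 46.1 and 59.8 CPM. All knockdown samples were above all controls, and knockdown replicate 2 was nearest to them. The means were 32.7 ± 2.69 and 56.1 ± 8.84 CPM (SD, n = 3), a 1.72-fold difference with a 95% confidence interval of 1.31 to 2.25. The log2 fold change was 0.78 (standard error 0.17) and the adjusted p 0.105, just above the threshold and so not called, which placed Tgfb1 at rank 146 of all tested genes ordered by p. It passed the threshold in 5 of 17 alternative ways of processing, with adjusted p values from 0.0269 to 0.361, and its direction was the same in all 17.

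Tgfb2 (ENSMUSG00000039239, GRCm38 chromosome 1, 186622792 to 186705989, minus strand) encodes an isoform that depends on betaglycan for strong receptor binding. It had 191, 49 and 144 counts in the controls and 122, 72 and 317 in the knockdown samples, or 30.6, 24.3 and 24.8 CPM against 17.5, 8.42 and 23.3 CPM. The groups did not overlap, but knockdown replicate 3 was only just below the lowest control, while knockdown replicate 2 was far below. The means were 26.6 ± 3.51 and 16.4 ± 7.49 CPM, 1.62-fold lower in the knockdown samples, with a log2 fold change of -0.69 (standard error 0.33, 95% interval -1.43 to 0.04). The adjusted p of 0.426 was far from the threshold, and no alternative called it. On chromosome 1 the median over tested genes was 0.25 on the log2 scale, and with chromosome medians removed the value for Tgfb2 was -0.93.

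The promoter bases of Tgfb1 and Tgfb2 are shown because these were the 2 members whose groups did not overlap, in opposite directions. Each run is the 250 bases before the RefSeq start (GRCm38.p6), 5′ to 3′ on the gene's own strand, chr7:25686752-25687001 for Tgfb1 and chr1:186705990-186706239 for Tgfb2. RefSeq windows were at hand for 6 of the 10 members. Capitals mark any of 4 motifs searched on both strands, namely the GC box GGGCGG, the TATA box core TATAA, the E-box CACGTG and the SMAD-binding core CAGAC, and no marked motifs overlapped.
Tgfb1: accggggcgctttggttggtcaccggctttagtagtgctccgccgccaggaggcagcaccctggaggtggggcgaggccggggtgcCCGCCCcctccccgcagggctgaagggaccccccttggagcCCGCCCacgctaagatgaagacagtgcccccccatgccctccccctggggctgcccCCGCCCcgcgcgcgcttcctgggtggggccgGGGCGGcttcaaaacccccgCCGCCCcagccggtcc
Tgfb2: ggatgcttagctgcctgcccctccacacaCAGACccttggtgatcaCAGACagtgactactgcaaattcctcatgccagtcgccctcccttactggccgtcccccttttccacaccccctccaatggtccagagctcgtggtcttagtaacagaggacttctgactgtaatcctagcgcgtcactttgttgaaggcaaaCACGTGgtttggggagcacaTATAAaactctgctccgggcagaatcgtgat

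The Tgfb1 window held 5 GC boxes, whose first bases lay 164, 123, 67, 36 and 16 bases before the start, and no match to the other 3 motifs. The Tgfb2 window held no GC box, a TATAA match at 31 bases, a CACGTG match at 51 bases and CAGAC matches at 221 and 204 bases before the start. Over 32851 windows of this length, 32.7% held the GC box, 22.8% TATAA, 6.02% CACGTG and 42.2% CAGAC. The GC content was 75.2% for Tgfb1 and 53.6% for Tgfb2, beside a median of 52.4% over all windows. Among the other members, GC boxes were also present in the Smad3 window and in 1 of the 2 Tgfbr1 windows, CAGAC in the other Tgfbr1 window and in that of Tgfbr2, and TATAA in that of Inhba at 91 bases. A match describes letters in the window and not a site in use.

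Tgfb3 (ENSMUSG00000021253, chromosome 12, 86056745 to 86079041) encodes the third TGF-beta isoform. It was at 21.5, 20.3 and 23.9 CPM in the controls and 12.8, 26.1 and 28.9 CPM in the knockdown samples. Knockdown replicate 1 was the lowest of the 6 samples and the other knockdown samples were the highest. The means of 21.9 ± 1.82 and 22.6 ± 8.61 CPM gave a log2 fold change of 0.04 (95% interval -0.60 to 0.69, adjusted p = 0.967). Its exons overlap those of Gm48008 and Gm37804 on the other strand, and how strand was used in counting is not given in the sources used here.

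Inhba (ENSMUSG00000041324, chromosome 13, 16011851 to 16031621) was the member with the fewest counts, 19, 1 and 7 in the controls and 17, 43 and 49 in the knockdown samples. These were 3.05, 0.496 and 1.20 CPM against 2.44, 5.03 and 3.60 CPM, and the groups overlapped because knockdown replicate 1 was below control replicate 1. The value in control replicate 2 rests on 1 count, below that sample's limit of 1.49 CPM. The fold was 2.07 with a wide 95% interval of 0.867 to 4.93 (adjusted p = 0.489).

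The 2 ligands that lay apart were also compared within a library, where a ratio of counts does not depend on the scaling. As Tgfb1 was higher and Tgfb2 lower in every knockdown sample, their ratio could not overlap between the groups. It therefore adds no separate support. Tgfb1 had 1.17, 1.27 and 1.27 times the counts of Tgfb2 in the controls and 3.57, 5.47 and 2.57 times in the knockdown samples. The mean ratio was 1.23 ± 0.0581 in the controls and 3.87 ± 1.47 in the knockdown samples, a 2.99-fold difference of the geometric means. The ratio of Tgfb1 to Tgfb3 was 1.66, 1.51 and 1.32 in the controls and 4.89, 1.77 and 2.07 in the knockdown samples, also without overlap, whereas the ratio of Tgfb3 to Tgfb2 overlapped. Per length of exon, Tgfb1 made up 35.5% to 37.9% of the summed CPM per kb of the 3 isoforms in the controls and 48.6% to 64.6% in the knockdown samples. The share of Tgfb2 was 24.3% to 28.2% and 7.94% to 16.4%, and that of Tgfb3 33.9% to 40.2% and 19.7% to 42.1%. These pairs were chosen after the values had been seen, so the ratios are given as a description with no test.

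**Figure D2:**
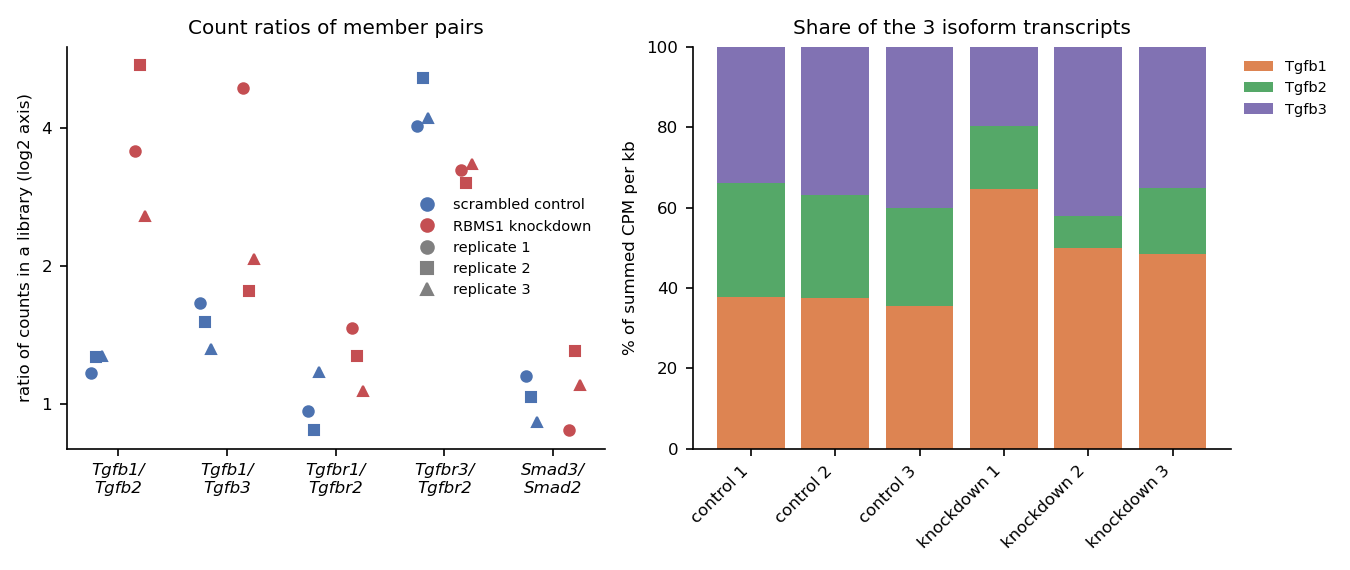
On the left, the ratio of counts of 5 member pairs within each library is plotted on a log2 axis, and on the right, bars give the percent of summed CPM per kb held by Tgfb1, Tgfb2 and Tgfb3 in each library. The Tgfb1 to Tgfb2 ratio was 1.17 to 1.27 in the controls and 2.57 to 5.47 in the knockdown samples, and the Tgfb1 bar reached 48.6% or more only in the knockdown samples.

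None of the receptor messages separated the groups by its own level. Tgfbr1 (ENSMUSG00000007613, chromosome 4, 47353222 to 47414931), the type I receptor kinase, was at 60.9, 38.7 and 65.0 CPM in the controls and 112, 73.3 and 59.2 CPM in the knockdown samples. Knockdown replicates 1 and 2 were above all controls, and knockdown replicate 3 was below 2 of them. The 1.48-fold difference of the fit had a log2 standard error of 0.27 and an adjusted p of 0.430. Tgfbr2 (ENSMUSG00000032440, chromosome 9, 116084293 to 116175360), the type II receptor that binds ligand, was at 63.2, 44.2 and 55.4 CPM in the controls and 76.2, 57.6 and 55.3 CPM in the knockdown samples. Its log2 fold change was 0.21 (95% interval -0.22 to 0.64, adjusted p = 0.710). For both receptors knockdown replicate 1 was the highest of the 6 samples and control replicate 2 the lowest.

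Tgfbr3 (ENSMUSG00000029287, chromosome 5, 107106570 to 107289629), the betaglycan co-receptor, was at 255, 227 and 233 CPM in the controls and 246, 175 and 184 CPM in the knockdown samples. Knockdown replicates 2 and 3 were below all controls and knockdown replicate 1 lay among them. The log2 fold change was -0.24 (standard error 0.17, 95% interval -0.62 to 0.14, adjusted p = 0.611). The Tgfbr3 counts were not whole in any sample, and 297 of its exon bases are shared with Gm43422 on the same strand, which had 110 counts in all. Within libraries, Tgfbr3 had 4.04, 5.13 and 4.21 times the counts of Tgfbr2 in the controls and 3.23, 3.04 and 3.34 times in the knockdown samples, a 1.39-fold lower ratio without overlap. The ratio of Tgfbr3 to Tgfbr1 was 4.19, 5.86 and 3.58 in the controls and 2.20, 2.39 and 3.12 in the knockdown samples, 1.75-fold lower and also without overlap. These pairs too were chosen after the values had been seen, and how often ratios of other gene pairs do not overlap was not computed. The ratio of Tgfbr1 to Tgfbr2 overlapped, at 0.876 to 1.17 in the controls and 1.07 to 1.47 in the knockdown samples.

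The SMAD messages had nearly the same mean in both groups. Smad2 (ENSMUSG00000024563, chromosome 18, 76241580 to 76310963) was at 33.3, 39.7 and 39.1 CPM in the controls and 39.5, 35.0 and 37.0 CPM in the knockdown samples, and its log2 fold change of -0.01 had a 95% interval of -0.36 to 0.35 (adjusted p = 0.992). Smad3 (ENSMUSG00000032402, chromosome 9, 63646767 to 63757994) was at 38.5, 41.2 and 35.8 CPM in the controls and 34.6, 45.7 and 40.8 CPM in the knockdown samples. Its log2 fold change was 0.07 (95% interval -0.30 to 0.45, adjusted p = 0.904). As folds, the 95% intervals of these receptor-activated SMADs were 0.778 to 1.27 for Smad2 and 0.811 to 1.36 for Smad3. The Smad3 to Smad2 count ratio was 0.916 to 1.15 in the controls and 0.876 to 1.31 in the knockdown samples.

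Smad7 (ENSMUSG00000025880, chromosome 18, 75367529 to 75395935), the inhibitory SMAD, was at 10.9, 8.93 and 9.81 CPM in the controls and 5.03, 10.6 and 13.9 CPM in the knockdown samples. The means of 9.88 ± 0.985 and 9.87 ± 4.51 CPM were equal within error, but the knockdown samples spread far more, with the lowest value in replicate 1 and the highest in replicate 3. The log2 fold change was 0.00 with a 95% interval of -0.76 to 0.76. Smad7 thus followed the order of Tgfb3 over the knockdown samples, and the correlation of their log2 CPM over the 6 samples was 0.96, in which knockdown replicate 1 is low in both. Tgfbr1 and Tgfbr2 had a correlation of 0.93. These correlations over libraries that share scaling and depth differences are descriptions.

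**Figure D3:**
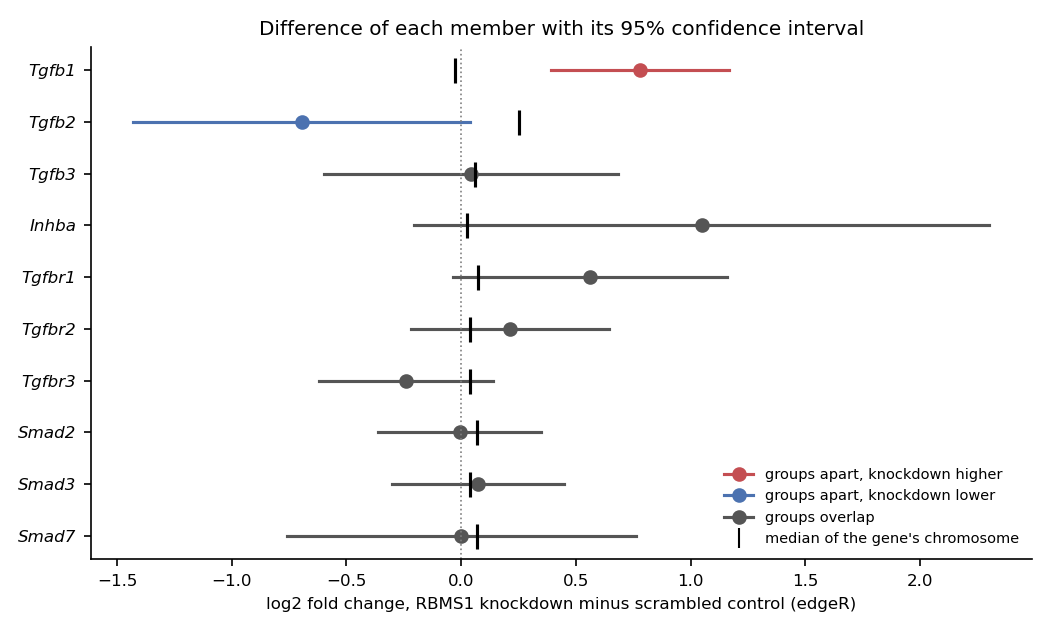
Points give the edgeR log2 fold change (RBMS1 knockdown minus scrambled control, n = 3 per group) of each member, lines its 95% confidence interval and black ticks the median log2 fold change of the tested genes on its chromosome. The interval of Tgfb1 (0.39 to 1.17) lies above 0, and those of the other 9 members include 0.

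Levels of different genes were compared per kb of exon. Over the 6 samples Tgfbr3 was the most abundant member, at 33.6 CPM per kb, and was above the next gene in 6 of 6 samples. Tgfbr1 (10.4), Tgfb1 (8.81), Tgfbr2 (7.16), Smad3 (7.12) and Tgfb3 (6.58 CPM per kb) followed well below it and lay closer to each other, and in this range neighbors kept their order in only 3 to 4 samples, so their order is not firm. Smad2 was at 4.24, Tgfb2 at 3.71 and Smad7 at 2.18 CPM per kb, and Smad2 was above Tgfb2 in 5 samples. Inhba was last at 0.412 CPM per kb, below Smad7 in 6 of 6 samples. In the controls Tgfb1 and Tgfb3 were level, at 6.48 ± 0.533 and 6.48 ± 0.539 CPM per kb, while the knockdown means were 11.1 ± 1.75 and 6.68 ± 2.54 CPM per kb.

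The genes most like a member were sought for the 3 members with the smallest p, as the tested genes with the highest Pearson correlation of log2 CPM over the 6 samples. For Tgfb1 these were Hebp1 (0.994), Cdk19 (0.991) and Ypel1 (0.988). For Tgfb2 they were Kbtbd7 (0.994), Ppp1r8 (0.993) and Sipa1l2 (0.980), and for Tgfbr1 Rnf14 (0.997), Fam45a (0.991) and Gm10031 (0.988). A correlation of 0.95 was exceeded by 49 genes for Tgfb1, 20 for Tgfb2 and 27 for Tgfbr1, in libraries that differ in depth and share their scaling.

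The other genes of the pathway were taken from 4 lists, which together held 111 genes, of which 90 were tested. Of these 90, 1 was called by edgeR, Adam12, and 16 had an unadjusted p under 0.05, with 7 higher and 9 lower in the knockdown samples. The log2 fold changes of 52 were above 0 and of 38 below, with a median of 0.074. The groups did not overlap for 9 higher and 10 lower genes, and DESeq2 called 6 of the 90. The shares over all genes given above are the background of these counts. They were 1.22% called by edgeR, 8.96% and 9.55% without overlap, 12.4% at an unadjusted p under 0.05 and 3.22% called by DESeq2. The list shares called by edgeR and without overlap are close to this background. Those at an unadjusted p under 0.05 and called by DESeq2 lie above it. The DESeq2 count leaves out the elastin gene Eln, which DESeq2 also called but which edgeR's filter removed.

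Of 22 other ligands, receptors and SMADs, 13 were tested and none was called by edgeR or DESeq2, with 3 at an unadjusted p under 0.05. All 13 had log2 fold changes above 0, with a median of 0.21, and the list summed to 543 to 581 CPM in the controls and 631 to 705 CPM in the knockdown samples. This median was above 0 in all 17 alternatives (0.166 to 0.584), the highest with library sizes alone, a scaling that moved the median of all genes by 0.37. Bmpr2, a type II BMP receptor, was at 199, 173 and 180 CPM in the controls and 261, 218 and 224 CPM in the knockdown samples (log2 fold change 0.35, adjusted p = 0.374). It lies on chromosome 1, whose tested genes had a median of 0.25. Acvr1b, the type I activin receptor that phosphorylates SMAD2 and SMAD3, was at 30.0, 26.3 and 31.7 CPM against 49.2, 36.2 and 34.4 CPM (0.44, adjusted p = 0.386). Smad5, a BMP-activated SMAD, was at 51.3 to 57.5 CPM in the controls and 60.8 to 63.4 CPM in the knockdown samples (0.21, adjusted p = 0.592). The ligand Gdf11 had the highest fold change, but 399 of its counts lay in knockdown replicate 3 and the other knockdown samples had 19 and 39. It was called without knockdown replicate 1 (adjusted p = 0.0651) and was at 0.24 without knockdown replicate 3. The genes Inhbc, Inhbe, Mstn, Nodal and Bmpr1b had 0 counts in all samples.

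Of 21 genes of latency, activation and extracellular control, 16 were tested and none was called by edgeR, while DESeq2 called 3. The 3 were Fst, Ltbp1 and Dcn, all lower in every knockdown sample. Without knockdown replicate 1, where 5.94% of all genes were called, edgeR called these 3 together with Itgav and Thbs1. Itgav and Thbs1 encode an integrin subunit and a matrix glycoprotein that can each take part in activating latent TGF-beta, and both were higher (log2 fold changes 0.60 and 0.98). With all samples both had overlapping groups (0.43 and 0.48, adjusted p = 0.396 and 0.802), and without knockdown replicate 3 they were at 0.32 and 0.06. These last 2 genes were named after their values were seen. Follistatin, the activin antagonist encoded by Fst, was at 20.8, 15.4 and 23.4 CPM in the controls and 4.60, 10.6 and 8.88 CPM in the knockdown samples (log2 fold change -1.31, standard error 0.32, adjusted p = 0.128). Ltbp1, which tethers latent TGF-beta to the matrix, was at 73.3, 66.0 and 86.4 CPM against 23.1, 42.0 and 48.7 CPM (-0.99, standard error 0.26, adjusted p = 0.149). Decorin, a matrix proteoglycan that binds TGF-beta and is encoded by Dcn, was at 278, 220 and 281 CPM against 85.4, 149 and 172 CPM (-0.94, standard error 0.25, adjusted p = 0.150). For all 3 genes knockdown replicate 1, the sample with the lowest fibroblast marker sum, was the lowest. Itgb5, whose integrin can activate latent TGF-beta, was the tested gene of the list with groups apart and knockdown higher, at 63.5 to 70.4 CPM against 88.8 to 94.0 CPM (0.43, standard error 0.14, adjusted p = 0.224).

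Of 25 intracellular regulators, 24 were tested, none was called by edgeR and DESeq2 called 1, Pmepa1. This gene, which encodes a TGF-beta-induced membrane protein that holds back receptor-activated SMADs, was at 22.4, 24.8 and 19.1 CPM in the controls and 60.7, 48.0 and 30.2 CPM in the knockdown samples. Its 2.10-fold difference had a log2 standard error of 0.25 and an adjusted p of 0.120, and 6 of 17 alternatives called it. Without knockdown replicate 1, where 5.94% of all genes were called, Pmepa1 and the endocytic adaptor gene Dab2 were called, the latter named after its values were seen. Dab2 had overlapping groups with all samples (log2 fold change 0.54, adjusted p = 0.677) and was at -0.13 without knockdown replicate 3. Ldlrad4, a relative of Pmepa1 that also inhibits SMAD phosphorylation, was at 2.89 to 5.85 CPM against 5.89 to 8.37 CPM (log2 fold change 0.77, adjusted p = 0.404). Fkbp1a, whose product binds the type I receptor, and Tgif1, a transcriptional corepressor of SMADs, had log2 fold changes of 0.42 and 0.56 with overlapping groups (adjusted p = 0.407 and 0.445).

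Of 43 genes known to respond to TGF-beta, 37 were tested. Adam12, which encodes a disintegrin and metalloproteinase induced by TGF-beta, fell in the knockdown samples and was the gene called by edgeR, while DESeq2 called Adam12, Rhob and Eln, all lower. It was at 130, 144 and 147 CPM in the controls and 83.2, 78.3 and 62.8 CPM in the knockdown samples, with means of 140 ± 8.82 and 74.8 ± 10.7 CPM. On the log2 scale the difference was -0.91 (standard error 0.16), with an adjusted p of 0.0499, and 11 of 17 alternatives called it. Without any 1 of the 3 controls or without knockdown replicate 2 Adam12 was not called (adjusted p = 0.132 to 0.215), nor was it with library sizes alone (0.341) or a replicate block (0.152). Its log2 fold change was -0.95 to -0.87 in those leave-out fits and -0.92 with the block. It was -0.53 with library sizes alone. Without knockdown replicate 1, 7 genes of the list were called, where 5.94% of all genes were. Of the 7, Adam12, Junb, Rhob, Vegfa and the elastin gene Eln, which had too few counts for edgeR's filter with all samples, were lower. Tnc and Acta2, for a matrix glycoprotein and smooth muscle actin, were higher (log2 fold changes 2.63 and 1.09). With all samples both had overlapping groups (2.09 and 0.52, adjusted p = 0.383 and 0.865), and without knockdown replicate 3 they were at 0.30 and -0.15. Eln, Tnc and Acta2 were named after their values were seen. Of the tested genes 15 were above 0 and 22 below, with a median of -0.071. The sign of this median was not firm, since it was 0.0955 without knockdown replicate 1 and -0.241 without knockdown replicate 3. With library sizes alone, where the median of all genes rose by 0.37, it was 0.297. At an unadjusted p under 0.05, 1 gene was higher and 5 were lower. Rhob, an endosomal small GTPase, was at 392, 285 and 333 CPM against 218, 216 and 220 CPM (-0.63, standard error 0.16, adjusted p = 0.146, and 0.0289 by DESeq2). Junb, an immediate early transcription factor, was at 395, 247 and 235 CPM against 26.3, 150 and 90.9 CPM (-1.72, standard error 0.50, adjusted p = 0.187), and lies on chromosome 8, where the median over tested genes was -0.38. Vegfa, the endothelial growth factor, was at 518 to 620 CPM against 257 to 449 CPM (-0.59, adjusted p = 0.313).

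**Figure D4:**
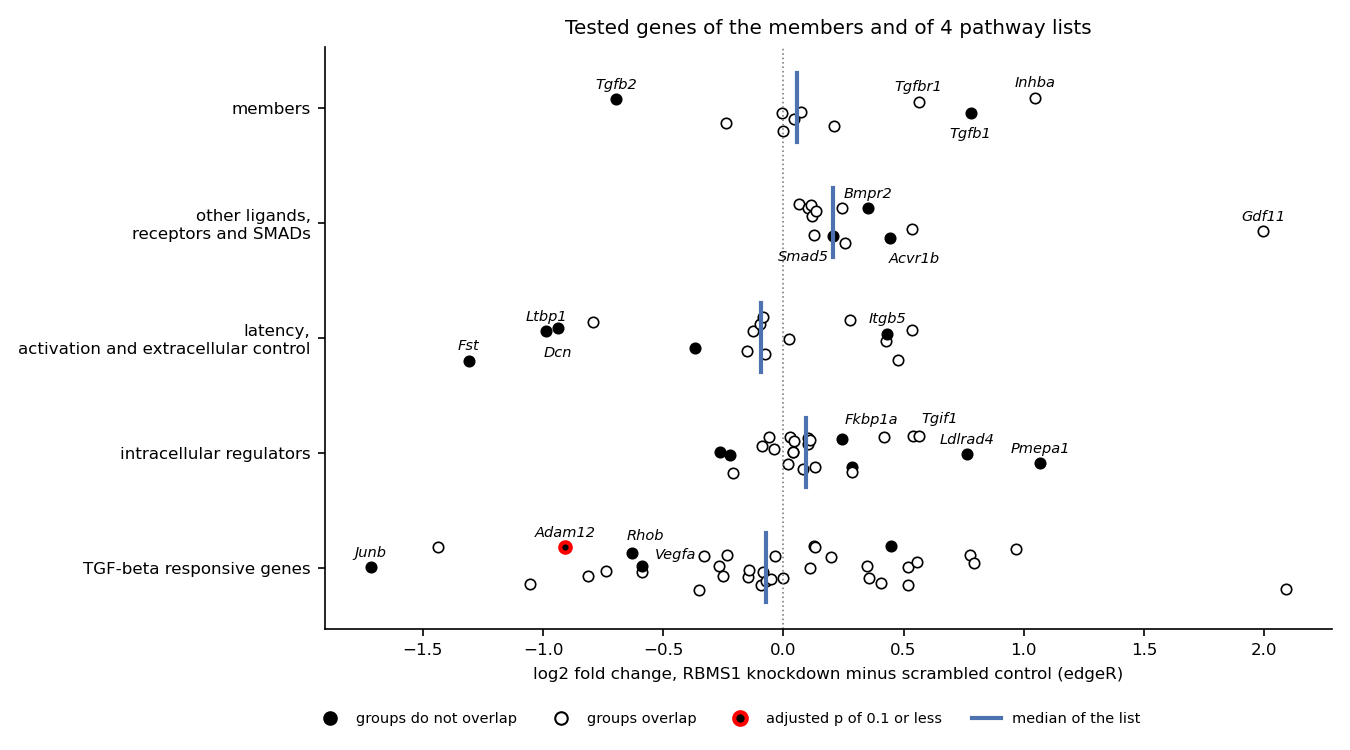
Each circle is the edgeR log2 fold change (RBMS1 knockdown minus scrambled control) of 1 tested gene, by list, spread vertically only to keep circles apart, with the 4 smallest p of each list named and blue lines at the medians. Filled circles mark groups that do not overlap, and the red rim marks Adam12, the 1 called gene, at -0.91.

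Marker genes of the cells were measured in the same samples. Of the 16 adipocyte markers 1 was called by edgeR, Retn, the adipokine resistin, which fell from 252 ± 54.6 to 79.0 ± 47.4 CPM (log2 fold change -1.67, adjusted p = 0.0967). Retn was not called when any sample but knockdown replicate 1 was left out (adjusted p = 0.123 to 0.358), nor with a replicate block (0.124), chromosome medians removed (0.229) or library sizes alone (0.118). The call was also lost with RLE size factors, with the earlier or the robust quasi-likelihood estimates, and with GC content and length trends removed. Without knockdown replicate 1, where 5.94% of all genes were called, 10 adipocyte markers were. Of the 16, 15 were below 0, with a median of -0.45, which was -0.707 without knockdown replicate 1. With library sizes alone it was -0.0428, under a scaling that raised the median of all genes by 0.37. The most abundant were Lpl (-0.87, adjusted p = 0.446), Acsl1 (-0.83, adjusted p = 0.324) and Fabp4 (-0.46, adjusted p = 0.543), which serve lipid uptake and handling, and Retn, Lpl and Acsl1 lie on chromosome 8. DESeq2, which called 3.22% of all the genes it tested, called 5 of the 16. These were Retn, Lpl (adjusted p = 0.0321), Acsl1 (0.0549) and Plin4 (0.0947) as lower and the fatty acid transporter gene Cd36 (0.0155) as higher. Cd36 was the marker above 0, at 0.72 by edgeR with an adjusted p of 0.183. Of the 12 tested preadipocyte and fibroblast markers none was called by edgeR, and DESeq2 called 2 as lower, Klf2 (-1.73, adjusted p = 0.0157) and Pdgfra (-0.86, adjusted p = 0.0275). By edgeR, 9 were below 0 and the median was -0.15. This median was 0.204 without knockdown replicate 1 and -0.542 without knockdown replicate 3, so its sign was not firm. With library sizes alone, where the median of all genes rose by 0.37, it was 0.243. The most abundant were Vim (-0.07, adjusted p = 0.947), Dlk1 (-0.84, adjusted p = 0.388) and Prrx1 (-0.23, adjusted p = 0.780). The part of these markers in the values of the members was not tested.

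The members held their values unevenly when the data were processed in 17 other ways. The log2 fold change was 0.70 to 1.14 for Tgfb1, -1.03 to -0.32 for Tgfb2, 0.27 to 0.87 for Tgfbr1, 0.06 to 0.55 for Tgfbr2 and 0.79 to 1.91 for Inhba, in each case on 1 side of 0. Tgfb3, Smad2, Smad3 and Smad7 took both signs. Tgfbr3 was above 0 with library sizes alone (0.12) and otherwise below 0. Relative to the shift of all genes under that scaling Tgfbr3 was -0.24. Tgfb1 passed the threshold without knockdown replicate 1 (adjusted p = 0.074), and Inhba had its highest value without control replicate 1, the control with the most Inhba counts. The highest value of Tgfb1 and the lowest size of Tgfb2 came from library sizes alone, and relative to the shift of all genes under that scaling they were 0.78 and -0.69.

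**Figure D5:**
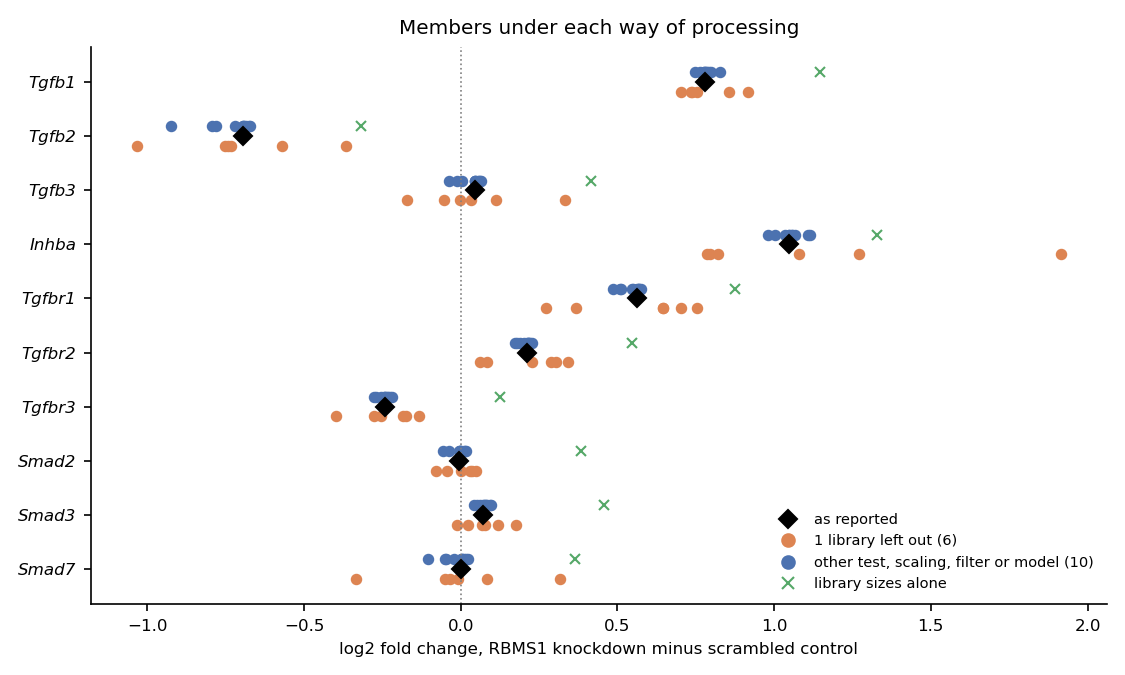
The horizontal axis gives the log2 fold change (RBMS1 knockdown minus scrambled control) of each member as reported (black diamonds), without 1 library at a time (orange), under other tests, scalings, filters or models (blue) and with library sizes alone (green crosses). Tgfb1 stays between 0.70 and 1.14 and Tgfb2 between -1.03 and -0.32, while the SMADs lie on both sides of 0.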

How the data were processed

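RNA from 6 cultures of differentiated 3T3-L1 cells, 3 biological replicates per group, was made by the authors into stranded, ribosomal RNA-depleted libraries and sequenced on a NovaSeq. Per the labels and the study's methods, reads were trimmed with Trim Galore 0.6.7, aligned to GRCm38 with STAR 2.7.10a and quantified with Salmon 1.9.0. The deposited values are estimated counts per gene, not normalized, and the authors tested them with DESeq2. Values with a fractional part (tolerance 1e-06) made up 3.97% to 7.78% of a column, and counts were rounded before use. The annotation release and the strand setting are not given in the sources used here.

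The counts of all 45706 genes were filtered with filterByExpr, scaled by TMM and tested with the quasi-likelihood test of edgeR 4.0.16 in R 4.3.3 with the group as the only term. P-values were adjusted by Benjamini-Hochberg over the 11440 genes tested and called at 0.1. The smallest p of an exact permutation test at this size is 0.1, and none was run. Positions, exon lengths and GC content came from a GENCODE annotation of GRCm38 that held 11402 of the tested genes, and promoter bases from RefSeq.

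The members and the lists were chosen with earlier results of these data known. Genes named in the text are the 10 members, Rbms1, the called genes of the 4 pathway lists and the 4 genes with the smallest p of each, the 3 most abundant and the called genes of the adipocyte and fibroblast markers, and, for the 3 members with the smallest p, the 3 genes most like each. Genes at 0 counts in all samples, 6 genes called without knockdown replicate 1 (Itgav, Thbs1, Dab2, Tnc, Acta2 and Eln) and 4 markers called by DESeq2 (Plin4, Cd36, Klf2 and Pdgfra) fall outside this rule and were named after their values were seen. Gm48008, Gm37804 and Gm43422 were named because their exons overlap those of a member. Alternatives were DESeq2 1.42.0, limma-voom (limma 3.58.1), scaling by RLE or by library sizes alone, genes unfiltered or filtered at 1 CPM in 3 samples, a replicate block, chromosome medians removed (chromosome 3 in 2 pieces, split at 50 Mb), loess trends over GC content and length removed (span 0.3), and each sample left out in turn. The earlier and robust quasi-likelihood estimates were added after seeing the data.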

Additional observations from a re-analysis of the deposited data

How the results depend on the processing

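Without knockdown replicate 1 the number of all genes called rose from 140 to 696, and without control replicate 2, the shallowest, it was 12. Of all calls 74.3% were lower in the knockdown samples, but 33.3% with library sizes alone, a scaling that moved the median of all genes by 0.37. Calls among the 10 members numbered 0 as reported, 1 (Tgfb1) under DESeq2, no filter, robust estimates and the GC content and length trends, and 0 to 1 when 1 sample was left out. Calls left out 1 sample at a time numbered 0 to 1 for the other ligands, receptors and SMADs, 0 to 5 for latency, activation and extracellular control, 0 to 2 for the intracellular regulators, 0 to 7 for the TGF-beta responsive genes, 0 to 10 for the adipocyte markers and 0 to 2 for the preadipocyte and fibroblast markers. DESeq2, over its own tested genes, called 3 of latency, activation and extracellular control, 1 intracellular regulator, 3 TGF-beta responsive genes, 5 adipocyte markers and 2 preadipocyte and fibroblast markers. With no filter the counts were 3 for latency, activation and extracellular control, 1 for the intracellular regulators, 3 for the TGF-beta responsive genes and 1 for the preadipocyte and fibroblast markers. The intracellular regulators had 1 call with library sizes alone and 1 with robust estimates. The TGF-beta responsive genes had 0 calls with library sizes alone, and the adipocyte markers had 0 with RLE size factors, library sizes alone, the earlier and the robust estimates, chromosome medians removed and GC content and length trends removed. The cause of these differences was not tested.

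Deviations from the group means had correlations of -0.153, 0.0905 and -0.0348 between same-numbered samples of the groups. Differently numbered samples had -0.1842 to 0.2215. These values cannot tell whether same-numbered cultures were handled together, which is not given in the sources used here. A replicate block reduced all calls from 140 to 39 and left 0 calls among the members (Tgfb1 adjusted p = 0.201), the TGF-beta responsive genes and the adipocyte markers, and it changed no other call described here.

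The direction held in all 17 alternatives for Tgfb1, Tgfb2, Tgfbr1, Tgfbr2 and Inhba. Tgfb3 turned to -0.0134 with limma-voom, -0.037 with the replicate block and ranged from -0.1706 to 0.3324 with 1 sample left out. Tgfbr3 turned to 0.1242 with library sizes alone, which was -0.244 relative to the shift of all genes under that scaling. Smad2 turned to 0.0145 with DESeq2, 0.0094 with limma-voom, 0.002 with RLE size factors, 0.3832 with library sizes alone and 0.0163 with no filter, and ranged from -0.0778 to 0.0498 with 1 sample left out. Smad3 ranged from -0.0114 to 0.1777 with 1 sample left out. Smad7 turned to -0.0482 with limma-voom, -0.1051 with the replicate block, -0.0503 with chromosome medians removed and -0.0221 with GC content and length trends removed, and ranged from -0.3332 to 0.3171 with 1 sample left out. None of these turned values passed the threshold. Inhba had 1 to 49 counts per sample, the fewest of the members.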
